A study of Mus musculus with 16 samples.

Results

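Expression of 9 transcription factor genes that mark hepatocyte identity was read in whole mouse liver: Foxa1, Foxa2, Foxa3, Cebpa, Cebpb, Onecut1, Onecut2, Prox1 and Gata4. They were taken by gene symbol from the FOXA, C/EBP and ONECUT families with Prox1 and Gata4, and all 9 were present among the 24421 gene rows of each of the 2 deposited count tables. Messenger RNA had been sequenced in 16 libraries that formed 4 groups of 4, in 2 separate experiments. The DKO livers were ARID1A f/f with ARID1B f/f and carried Alb-Cre+, which removes both floxed genes where the albumin promoter drives Cre, and their control livers had these floxed alleles but no Cre. The BKO livers were ARID1B f/f; Alb-Cre+, and their controls were ARID1B f/f; Alb-Cre-. Of these controls, ARID1B-F5-WT and ARID1B-F5-WT-2 share an animal tag and may come from 1 animal; with their counts summed into 1 library the calls among the 9 genes in BKO livers were still 0. Arid1a and Arid1b encode alternative DNA-binding subunits of the BAF chromatin remodelling complex. Alb-Cre acts chiefly in hepatocytes, and the labels do not say which other liver cells, bile duct cells among them, kept the floxed genes. No group lost ARID1A alone and Cre was present in every knockout and in no control, so the effects of ARID1A loss alone and of Cre cannot be told apart from those of the genotypes. The livers stand here by genotype alone, with age, sex and strain not given in the sources used here.

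The identity of a hepatocyte is held by a small network of DNA-binding factors that bind the same liver enhancers and one another's genes. FOXA proteins are pioneer factors that open nucleosomal DNA at liver enhancers. C/EBP alpha drives genes of gluconeogenesis, glycogen and urea metabolism in resting liver, while C/EBP beta is induced in the acute phase response and in regeneration. ONECUT factors and GATA4 act early in liver development, and PROX1 is needed for hepatoblasts to migrate and in the adult restrains bile acid and lipid genes. Several of these genes are also active outside hepatocytes: Prox1 in lymphatic endothelium, Gata4 in sinusoidal endothelium and stellate cells, Cebpb in macrophages, and Onecut1 in bile duct cells.

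The DKO experiment was sequenced to 8699417 to 11031443 counts a library, the BKO experiment to 21151726 to 40551934. Levels are CPM after TMM scaling, given per library and as mean ± SD with n = 4 per group. Arid1b was lower in both knockouts (log2 fold change -0.57 in DKO and -0.94 in BKO, edgeR adjusted p = 0.0167 and 0.00154), and Arid1a in DKO livers did not pass (-0.20, adjusted p = 0.149). The Arid1b call in DKO livers ended without DKO-7068, at an adjusted p of 0.0515, and under total-count scaling, at 0.0910. Scaling by total counts only moved the median log2 fold change of all tested genes in DKO livers from 0.02 to 0.20, so changes there are read relative to that shift.

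Promoter sequence was searched for 7 of the 9 genes, Gata4 and Onecut2 not among them, and covered 10 start sites (RefSeq, GRCm38.p6, 250 bases before each start). It is shown for Cebpa and Prox1, which fell together in DKO livers, and for Foxa3, which had the smallest p among the 9 genes in BKO livers. Each reads 5′ to 3′ on the gene's strand up to the base before the start, with capitals marking a TATA box word (TATAAA or its reverse complement).
Cebpa, chr7:35119043-35119292, plus strand: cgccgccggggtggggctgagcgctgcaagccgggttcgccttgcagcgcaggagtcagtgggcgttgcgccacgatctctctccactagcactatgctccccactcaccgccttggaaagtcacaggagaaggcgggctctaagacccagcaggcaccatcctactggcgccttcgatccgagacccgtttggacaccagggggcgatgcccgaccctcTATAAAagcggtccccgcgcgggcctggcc
Prox1, first of 2 listed starts, chr1:190170828-190171077, minus strand: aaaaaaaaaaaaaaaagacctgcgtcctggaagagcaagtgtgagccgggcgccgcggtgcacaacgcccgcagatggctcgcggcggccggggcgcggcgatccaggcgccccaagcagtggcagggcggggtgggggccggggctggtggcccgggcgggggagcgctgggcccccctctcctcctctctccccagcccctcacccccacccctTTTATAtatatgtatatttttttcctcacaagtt
Foxa3, chr7:19023540-19023789, minus strand: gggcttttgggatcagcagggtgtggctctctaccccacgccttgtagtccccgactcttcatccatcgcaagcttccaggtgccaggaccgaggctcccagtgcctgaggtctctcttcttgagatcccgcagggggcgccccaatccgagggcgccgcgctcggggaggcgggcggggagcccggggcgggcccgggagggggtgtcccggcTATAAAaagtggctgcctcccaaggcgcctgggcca

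The TATA word began at position -30 in Cebpa, -34 in Prox1 and -36 in Foxa3, counted back from the start. It was also in the third of the listed Foxa2 starts, as TTTATA at -208, so 4 of the 10 windows held it. It was present in 12.4% of all 32851 promoters of the same length searched on both strands. The FOXA word TGTTTAC, held by 3.17% of all promoters, was found once, as GTAAACA at -141 of Foxa1. The ONECUT word ATTGATT, held by 2.61%, was found once, at -213 of the first Foxa2 start. The C/EBP words TTGCGCAA (0.164% of promoters) and TTGNNCAA (5.65%, which includes the former) and the GATA word AGATAAG (2.74%) were in none of the 10 windows. The 3 printed windows had 66.4%, 64.8% and 68.8% G and C, against a median of 52.4% over all promoters. A match is a description of letters, not of a bound site.

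Cebpa and Prox1 were the 2 of the 9 genes that fell in DKO livers, each to less than the lowest control library, and 0 of the 9 rose. Across all 12848 genes tested, 16.6% were lower and 19.2% higher (edgeR, Benjamini-Hochberg adjusted p under 0.05), 35.8% in either direction, so 2 of 9 lower lies near the background share. The DKO and control libraries did not overlap for these same 2 genes, both lower, where 16.9% of all genes lay wholly below and 18.5% wholly above the controls. Both were also the only members at an unadjusted p under 0.05, which at least 35.8% of all genes passed, since every called gene does. DESeq2 and limma with voom each called the same count, 0 higher and 2 lower. The median log2 fold change of the 9 genes was -0.21, against 0.02 over all genes tested. Of all DKO calls 53.6% were higher, and 72% with scaling by total counts only. In BKO livers 0 of the 9 genes were called in either direction by edgeR, against 0.185% of 14061 genes higher and 0.398% lower, 0.583% in all. BKO and control libraries overlapped for all 9, where 3.36% of genes lay wholly below and 3.64% wholly above. There, 2 members, Foxa1 and Foxa3, had an unadjusted p under 0.05. The larger edgeR p of these, 0.0461 for Foxa1, ranked 1559 among the 14061 genes. Limma with voom called 0, and DESeq2 called 1, Foxa3, lower. The median of the members in BKO livers was 0.15, against 5.14e-05 over all genes. Of all BKO calls 31.7% were higher, and 20.4% with total counts only.

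**Figure D1:**
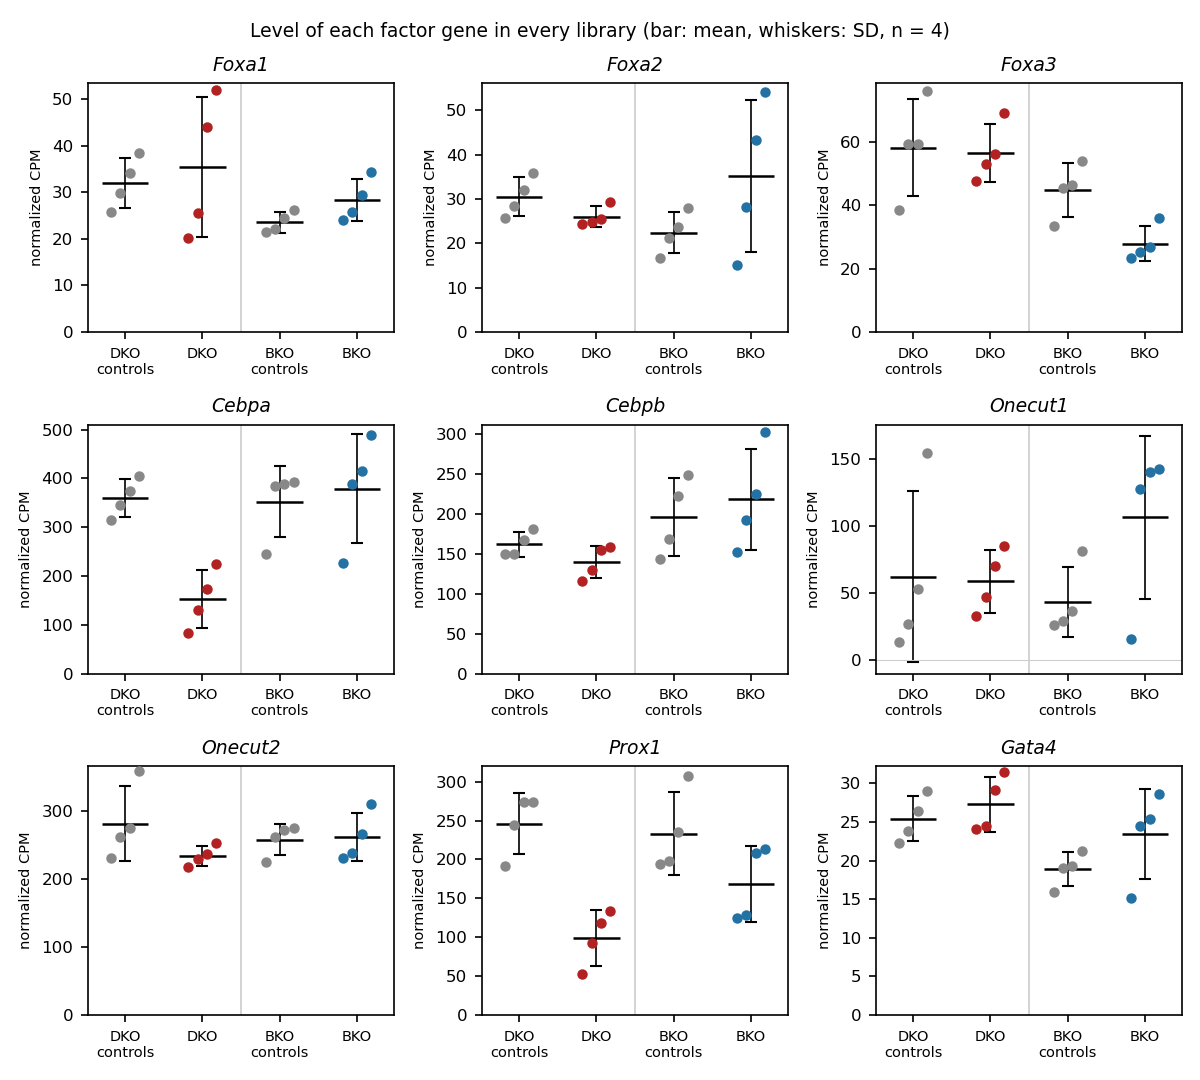
Normalized CPM of the 9 genes in each of the 16 libraries, 1 panel per gene, with the mean and SD of each group of 4. In the Cebpa and Prox1 panels all 4 DKO points lie below all 4 of their controls, while in the other 7 panels DKO and control points overlap.

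**Figure D2:**
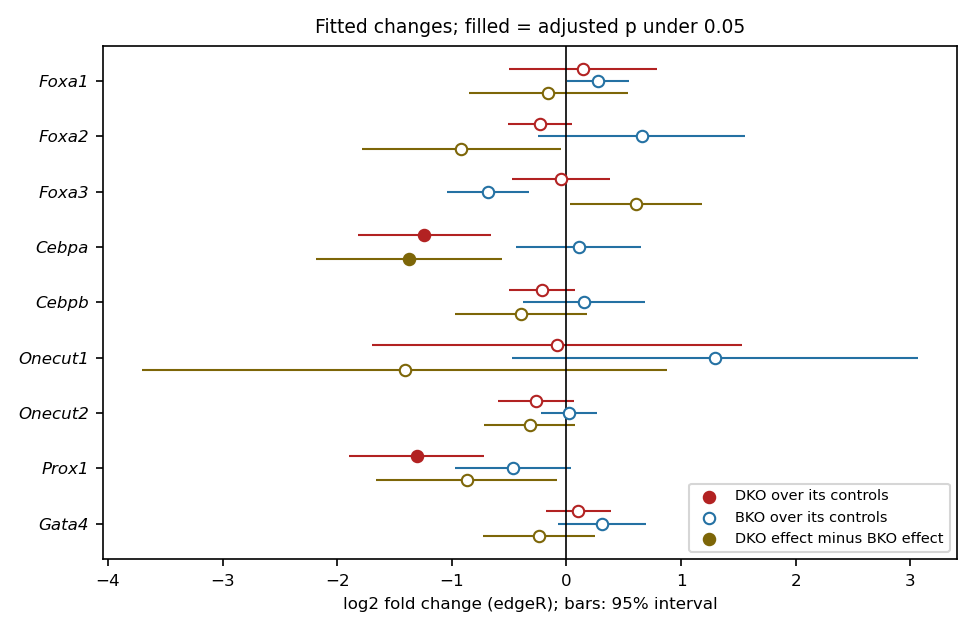
Fitted log2 fold changes of the 9 genes with 95% intervals, for DKO over its controls, BKO over its controls and the difference of these effects; filled points have an adjusted p under 0.05. The filled points are Cebpa and Prox1 in DKO, at -1.24 and -1.31, and Cebpa for the difference, at -1.38.

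Cebpa encodes C/EBP alpha, the basic leucine zipper factor that sustains metabolic genes of the resting hepatocyte (chromosome 7, 35119293 to 35121928 on GRCm38, plus strand). Its level was 131, 174, 224 and 82.4 CPM in DKO-7068, DKO-7070, DKO-7112 and DKO-7137. Control levels were 346, 375, 406 and 315 CPM in WT-7067, WT-7069, WT-7114 and WT-7139. The highest DKO library thus lay under the lowest control, and the DKO libraries spread 2.71-fold between themselves against 1.29-fold in the controls. The mean was 153 ± 60.2 against 360.4 ± 38.8 CPM, 2.36-fold lower (edgeR adjusted p = 0.00470, with a log2 fold change of -1.24 and an SE of 0.26). Leaving out any single library gave log2 fold changes of -1.50 to -1.04 with adjusted p of 0.00104 to 0.0168. With the animal tag series as a term (tags up to DKO-7070 against higher ones, a split the labels do not name) it was -1.24 (adjusted p = 0.00804). The tissue was liver and not sorted cells, so fewer hepatocytes and less Cebpa RNA per hepatocyte cannot be told apart here. An annotated antisense gene overlaps Cebpa, and the counting's strand setting, not given in the sources used here, decides whether its reads were kept apart.

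In BKO livers Cebpa overlapped its controls. It was at 415 in ARID1B-F1-KO, 489 in ARID1B-F3-KO, 226 in ARID1B-F4-KO and 388 in ARID1B-F6-KO. The controls were at 384 in ARID1B-F2-WT, 392 in ARID1B-F5-WT-2, 389 in ARID1B-F5-WT and 245 in ARID1B-F7-WT. One library in each group, ARID1B-F4-KO and ARID1B-F7-WT, sat well below its fellows, and the remaining 6 lay between 384 and 489. The fitted change was 0.11 (SE 0.24, 95% interval -0.44 to 0.65, edgeR adjusted p = 0.916).

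The Cebpa change differed between the 2 knockout experiments. Each genotype was studied in its own experiment, at unlike depth, so effects of genotype and of experiment cannot be told apart here. The DKO change minus the BKO change, tested over all 16 libraries as an interaction, was -1.38 (SE 0.38, edgeR adjusted p = 0.0167), where 11.5% of 14050 genes tested had a lower and 11.0% a higher change in DKO, 22.5% in all. Cebpa was the 1 member called lower here, 0 were called higher, and 4 of the 9 had an unadjusted p under 0.05. The largest of these 4 edgeR p-values, 0.0395 for Foxa3, ranked only 4571 among the 14050 genes, so such values were common. DESeq2 and limma with voom also called 1 lower and 0 higher. Leaving out any 1 library gave -1.63 to -1.17 (adjusted p 0.00465 to 0.0392). With scaling by total counts only it was -1.09 and no longer passed (adjusted p = 0.0555), while the median of all genes moved from -0.01 to 0.27 and the share of higher calls from 49.1% to 77.9%.

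Prox1 encodes a homeodomain factor that acts as a corepressor of bile acid synthesis in hepatocytes (chromosome 1, 190118035 to 190170714, minus strand). DKO livers had 93.2, 118, 134 and 52.1 CPM in DKO-7068, DKO-7070, DKO-7112 and DKO-7137. Control livers had 274, 274, 244 and 191 CPM in WT-7067, WT-7069, WT-7114 and WT-7139. The groups did not overlap, and the 4 DKO libraries stood in the same order for Prox1 as for Cebpa, lowest in DKO-7137 and highest in DKO-7112. The mean was 99.3 ± 35.7 against 246 ± 39.0 CPM, 2.47-fold lower (edgeR adjusted p = 0.00385, with a log2 fold change of -1.31 and an SE of 0.26). With any 1 library left out the change was -1.51 to -1.10 (adjusted p 0.00138 to 0.0119), and with the tag series as a term -1.30 (adjusted p = 0.00501). Of the lymphatic endothelial markers Flt4, Mmrn1 and Reln, which mark another Prox1-expressing cell type, 0 of 3 tested were called in DKO livers (0 at an unadjusted p under 0.05, and 0 by DESeq2 and by limma with voom). The summed level of the 5 lymphatic genes listed ran from 193 to 379 CPM in DKO and 204 to 265 CPM in controls, and Ccl21a had no count in any library. Most of that sum was Reln, which is also listed as a stellate cell marker (mean 234 in DKO against 184 CPM in controls), while Flt4 was at 54.3 against 55.6 and Mmrn1 at 3.72 against 1.12 CPM. Antisense genes overlap Prox1, which limits its value as they do that of Cebpa.

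In BKO livers Prox1 was at 125 in ARID1B-F1-KO, 208 in ARID1B-F3-KO, 128 in ARID1B-F4-KO and 213 in ARID1B-F6-KO. Its controls were at 235 in ARID1B-F2-WT, 307 in ARID1B-F5-WT-2, 198 in ARID1B-F5-WT and 194 in ARID1B-F7-WT. ARID1B-F1-KO and ARID1B-F4-KO lay below every control and the other BKO libraries lay among them. The fitted change was -0.47 (SE 0.22, 95% interval -0.98 to 0.04, edgeR adjusted p = 0.473). The difference between the knockouts did not pass for Prox1 (-0.87, SE 0.37, adjusted p = 0.107).

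Ratios of counts within a library are free of any scaling factor, and were taken after the values had been seen. Prox1 counts per Cebpa count came to 0.656 ± 0.0488 in DKO and 0.683 ± 0.0933 in control livers (exact two-sided permutation p = 0.686, n = 4 per group). The DKO ratios ran from 0.600 to 0.711 and the control ratios from 0.602 to 0.791, so the groups overlapped. In the BKO experiment the Prox1 to Cebpa ratio was 0.461 ± 0.123 against 0.674 ± 0.138 (exact permutation p = 0.114). Cebpa counts per Cebpb count came to 1.11 ± 0.441 in DKO and 2.23 ± 0.176 in control livers. All 4 DKO ratios, 0.534 to 1.50, lay below all 4 control ratios, 2.07 to 2.44 (log2 difference -1.11, exact two-sided permutation p = 0.0286, the smallest that 4 against 4 can give, and 0.114 after Benjamini-Hochberg adjustment over the 4 ratio tests). In the BKO experiment Cebpa to Cebpb was 1.90 ± 0.967 against 1.92 ± 0.736 (exact permutation p = 0.886).

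**Figure D3:**
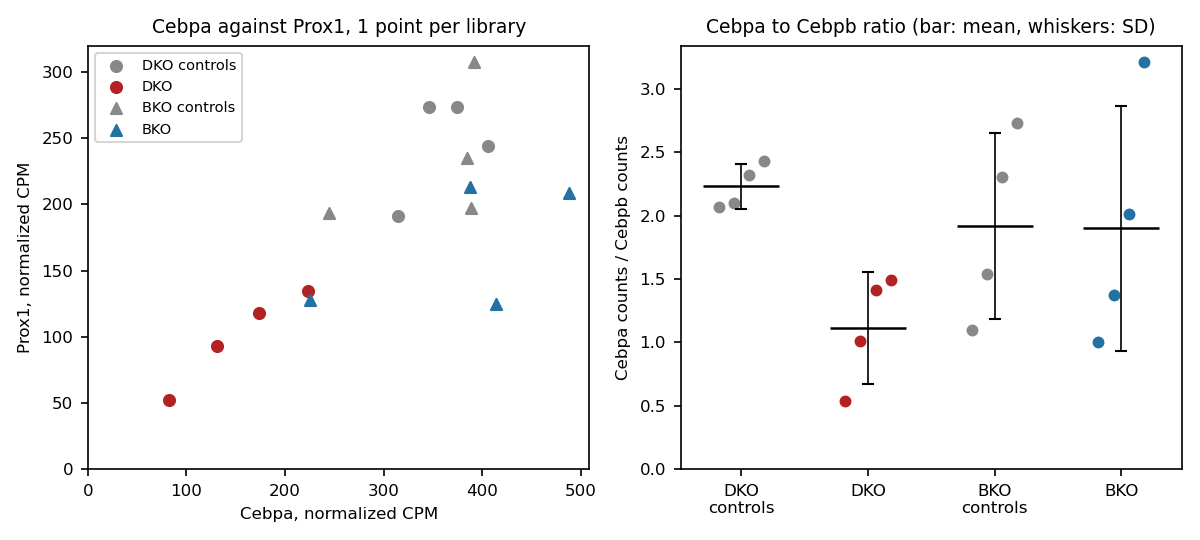
Left, Prox1 against Cebpa in normalized CPM, 1 point per library; right, the ratio of Cebpa to Cebpb counts in each library with group mean and SD. The 4 DKO points occupy the low corner at 82.4 to 224 CPM of Cebpa and 52.1 to 134 CPM of Prox1, and their Cebpa to Cebpb ratios lie below those of their 4 controls.

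Cebpb, the C/EBP paralog induced by cytokines (chromosome 2, 167688915 to 167690418), did not pass in either knockout. DKO livers had 129.8, 116, 158 and 154 CPM in DKO-7068, DKO-7070, DKO-7112 and DKO-7137, against 149, 181, 167 and 149.7 in WT-7067, WT-7069, WT-7114 and WT-7139. The groups overlapped, and the fitted change was -0.21 (SE 0.13, 95% interval -0.50 to 0.08, edgeR adjusted p = 0.233). The BKO values were 302, 152, 224 and 193 in ARID1B-F1-KO, ARID1B-F3-KO, ARID1B-F4-KO and ARID1B-F6-KO. Their controls had 249, 143, 168 and 223 in ARID1B-F2-WT, ARID1B-F5-WT-2, ARID1B-F5-WT and ARID1B-F7-WT. These groups overlapped over most of their range (0.15, SE 0.24, adjusted p = 0.866), and the difference of the changes was -0.40 (adjusted p = 0.319). Cebpb shares its locus with the opposite-strand gene Tmem189, which was at 10.9 ± 1.30 CPM in DKO and 11.8 ± 2.16 CPM in control livers.

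Foxa1 (chromosome 12, 57540628 to 57546916) is one of the pioneer factors that bind liver enhancers before other factors do. It split the DKO libraries, at 51.9 in DKO-7068 and 44.0 in DKO-7070 against 20.2 in DKO-7112 and 25.5 in DKO-7137. Control levels were 29.8, 38.4, 34.2 and 25.9 in WT-7067, WT-7069, WT-7114 and WT-7139. Of the DKO libraries, 2 thus lay above every control and 2 below every control, and the fitted change of 0.15 (SE 0.29, edgeR adjusted p = 0.731) turned to -0.11 without DKO-7068. With DKO-7068 and DKO-7070 summed into 1 library the change was -0.040. The animal tags were cut by number into 2 series, a split the labels do not name. WT-7067, DKO-7068, WT-7069 and DKO-7070 formed the first, which holds both high libraries, and all higher tags the second. With the series as a term the change was 0.06 (adjusted p = 0.840). In BKO livers Foxa1 was at 29.4, 34.4, 24.2 and 25.8 CPM in ARID1B-F1-KO, ARID1B-F3-KO, ARID1B-F4-KO and ARID1B-F6-KO. Controls were at 21.4, 22.1, 26.2 and 24.4 in ARID1B-F2-WT, ARID1B-F5-WT-2, ARID1B-F5-WT and ARID1B-F7-WT, and the groups overlapped (0.27, SE 0.12, adjusted p = 0.416).

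Foxa2 (chromosome 2, 148042877 to 148046969), whose protein also governs bile acid and lipid genes in the fasted liver, was close to uniform in DKO livers. It was at 24.8, 29.4, 24.4 and 25.4 CPM in DKO-7068, DKO-7070, DKO-7112 and DKO-7137, against 32.0, 35.8, 28.5 and 25.7 in WT-7067, WT-7069, WT-7114 and WT-7139. Of the DKO libraries only DKO-7070 reached the control range (-0.23, SE 0.12, edgeR adjusted p = 0.176). BKO livers were spread more widely, at 43.2 in ARID1B-F1-KO, 54.2 in ARID1B-F3-KO, 15.1 in ARID1B-F4-KO and 28.3 in ARID1B-F6-KO. Controls were at 16.8 in ARID1B-F2-WT, 23.6 in ARID1B-F5-WT-2, 27.9 in ARID1B-F5-WT and 21.2 in ARID1B-F7-WT. Of the BKO libraries 3 lay above and 1, ARID1B-F4-KO, below all controls (0.65, SE 0.38, adjusted p = 0.591). The difference of the changes was -0.92 (SE 0.41, adjusted p = 0.121), and without ARID1B-F4-KO it was -1.17 and passed (adjusted p = 0.00541).

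Foxa3 (chromosome 7, 19013284 to 19023538), the FOXA gene with the highest level per exon length in both control groups, did not pass in DKO livers. It was at 52.9, 56.3, 69.0 and 47.8 CPM in DKO-7068, DKO-7070, DKO-7112 and DKO-7137, against 59.3, 75.9, 59.2 and 38.4 in WT-7067, WT-7069, WT-7114 and WT-7139. These groups overlapped throughout (-0.05, SE 0.19, 95% interval -0.47 to 0.38, edgeR adjusted p = 0.879). In BKO livers it was at 26.7 in ARID1B-F1-KO, 25.3 in ARID1B-F3-KO, 23.5 in ARID1B-F4-KO and 35.9 in ARID1B-F6-KO. Controls were at 53.9 in ARID1B-F2-WT, 46.3 in ARID1B-F5-WT-2, 33.3 in ARID1B-F5-WT and 45.5 in ARID1B-F7-WT. The groups overlapped only because ARID1B-F6-KO exceeded ARID1B-F5-WT. The mean was 27.8 ± 5.51 against 44.7 ± 8.50 CPM (log2 fold change -0.69, SE 0.16, unadjusted p = 0.00141, edgeR adjusted p = 0.107). DESeq2 called it lower (-0.68, adjusted p = 0.0106), as did edgeR without ARID1B-F5-WT (-0.81, adjusted p = 0.0471). The difference of the changes was 0.61 (SE 0.27, adjusted p = 0.121), and 0.88 under total-count scaling (adjusted p = 0.0370).

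Onecut1 (chromosome 9, 74861921 to 74891781), which encodes HNF6, a factor of liver and bile duct development, varied more than the other members between livers of both control groups and of the BKO group. DKO livers were at 69.9, 85.3, 47.1 and 32.7 CPM in DKO-7068, DKO-7070, DKO-7112 and DKO-7137. Their controls ran from 13.6 in WT-7139 through 27.1 in WT-7114 and 53.3 in WT-7067 to 154 in WT-7069. The controls spanned 11.3-fold, with a coefficient of variation of 103%, above that of 99.5% of all genes tested, and enclosed all 4 DKO values. In both genotypes this spread followed the tag series, a split the labels do not name. Libraries with tags up to DKO-7070 lay at 53.3 to 154 CPM and those with higher tags at 13.6 to 47.1 CPM. With the series as a term the change was 0.24 (edgeR adjusted p = 0.723). The fitted change was -0.08 (SE 0.70, 95% interval -1.70 to 1.53, edgeR adjusted p = 0.939), and 0.90 without WT-7069. In BKO livers it was at 127 in ARID1B-F1-KO, 142 in ARID1B-F3-KO, 15.9 in ARID1B-F4-KO and 140.1 in ARID1B-F6-KO. Controls were at 36.7 in ARID1B-F2-WT, 26.1 in ARID1B-F5-WT-2, 81.6 in ARID1B-F5-WT and 29.1 in ARID1B-F7-WT. Again 3 BKO libraries exceeded all controls and ARID1B-F4-KO fell below all of them (1.29, SE 0.73, 95% interval -0.48 to 3.07, adjusted p = 0.583). The lincRNA gene Gm20649 overlaps Onecut1 on its strand.

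Onecut2, the ONECUT paralog active in liver and bile duct development, did not pass in either knockout. DKO livers were at 253, 229.9, 218 and 237 CPM in DKO-7068, DKO-7070, DKO-7112 and DKO-7137, against 231, 359.9, 276 and 262 in WT-7067, WT-7069, WT-7114 and WT-7139. Of the DKO libraries only DKO-7068 and DKO-7137 exceeded the lowest control (-0.27, SE 0.15, edgeR adjusted p = 0.191). BKO livers had 232, 311, 239 and 267 in ARID1B-F1-KO, ARID1B-F3-KO, ARID1B-F4-KO and ARID1B-F6-KO. Controls had 275, 272, 262 and 225 in ARID1B-F2-WT, ARID1B-F5-WT-2, ARID1B-F5-WT and ARID1B-F7-WT, and the groups overlapped (0.02, SE 0.11, 95% interval -0.22 to 0.26, adjusted p = 0.974).

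Gata4 (chromosome 14, 63198922 to 63271692), a zinc finger factor of early liver and of sinusoidal endothelium, did not pass in either knockout. DKO livers were at 31.5, 29.1, 24.5 and 24.0 CPM in DKO-7068, DKO-7070, DKO-7112 and DKO-7137, against 29.0, 22.3, 23.9 and 26.5 in WT-7067, WT-7069, WT-7114 and WT-7139. The groups overlapped (0.10, SE 0.13, 95% interval -0.18 to 0.39, edgeR adjusted p = 0.568). BKO livers were at 25.5, 28.7, 15.2 and 24.5 in ARID1B-F1-KO, ARID1B-F3-KO, ARID1B-F4-KO and ARID1B-F6-KO. Controls were at 19.1, 19.3, 21.3 and 15.9 in ARID1B-F2-WT, ARID1B-F5-WT-2, ARID1B-F5-WT and ARID1B-F7-WT. As with Foxa2 and Onecut1, 3 BKO libraries lay above and ARID1B-F4-KO below every control (0.31, SE 0.17, adjusted p = 0.543).

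ARID1B-F4-KO was the lowest BKO library for 6 of the 9 genes: Foxa1, Foxa2, Foxa3, Cebpa, Onecut1 and Gata4. Its Arid1b level, 40.1 CPM, was the lowest of the BKO libraries, which ran up to 48.4 CPM, and its total of 33139698 counts and albumin share of 8.28% lay within the ranges of the other BKO libraries. Without it the BKO changes were 0.90 for Foxa2, 1.65 for Onecut1 and 0.47 for Gata4, and none of the 3 passed (edgeR adjusted p = 0.167, 0.208 and 0.110).

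Levels were compared between genes per kilobase of annotated exon. This corrects for length only roughly, because all annotated exons of a gene were used and not the transcript expressed in liver. In the DKO controls the order of mean CPM per kilobase was Cebpa (137), Cebpb (107.5), Prox1 (29.3), Foxa3 (28.6), Onecut2 (17.4), Onecut1 (15.1), Foxa2 (12.9), Foxa1 (9.64) and Gata4 (6.51). Only the steps from Cebpb to Prox1 and from Foxa1 to Gata4 separated neighbours whose libraries did not overlap. The BKO controls had the same order, from 134 for Cebpa and 130.2 for Cebpb down to 7.07 for Foxa1 and 4.84 for Gata4. In DKO livers Cebpb (92.8) stood above Cebpa (57.9) and Prox1 (11.8) stood below Foxa3 and both ONECUT genes. The libraries of Cebpb and Cebpa still overlapped there, as did those of Prox1 and Onecut1.

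**Figure D4:**
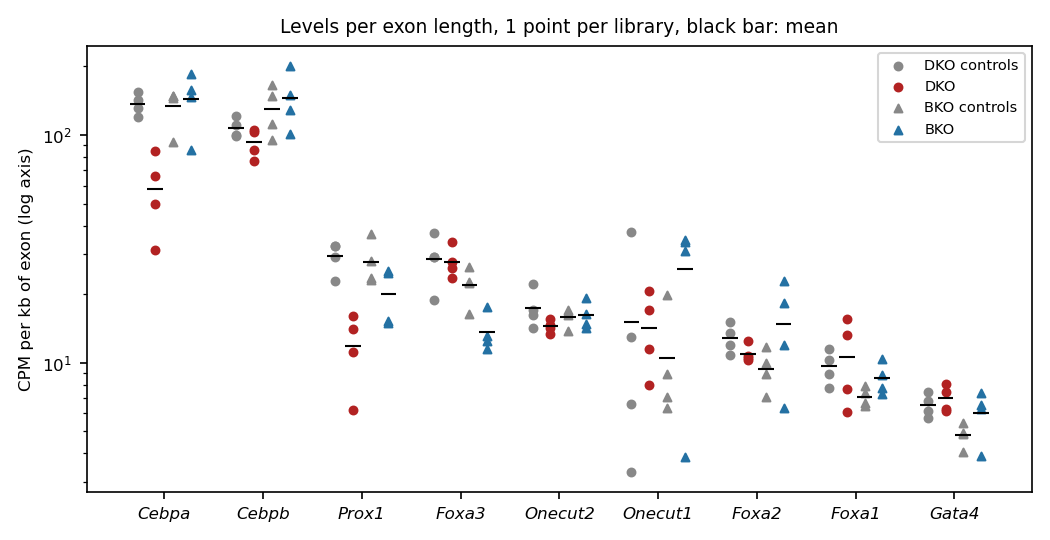
CPM per kilobase of exon (log axis) of the 9 genes in each library, ordered by their mean in the DKO controls, with group means as black bars. Cebpa and Cebpb lie highest in all 4 groups, and in DKO the Cebpa bar (57.9) lies below the Cebpb bar (92.8).

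The genes whose pattern over the 16 libraries was most like each member were picked by Pearson's r of log2 CPM, centred on the mean of the own controls, among 10600 candidate genes. These r values are descriptions of libraries that share group, depth and scaling, and genes that change in DKO livers reach high values through the group difference alone. Cebpa was most like Tysnd1, which encodes a peroxisomal protease (0.952), and Nr1h4, which encodes the bile acid receptor FXR (0.949). Prox1 was most like Luc7l2 (0.940) and the aldehyde oxidase gene Aox3 (0.927). With each library centred on the mean of its own group instead, which removes the group difference, the genes most like Cebpa were Klhdc7a (0.873) and Ube2z (0.861), and those most like Prox1 were Ube2z (0.886) and Bcl9l (0.876). Centred on the own controls, Foxa1 was closest to Igtp (0.856), Foxa2 to Rnmtl1 (0.874), Foxa3 to Brwd1 (0.886), Cebpb to Sra1 (0.798), Onecut1 to B4galt1 (0.872), Onecut2 to Mon1a (0.854) and Gata4 to Ddx31 (0.853).

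Among paralogs and partners of the 9 genes, 9 could be tested in DKO livers, and 3 were higher and 0 lower (2 lower at an unadjusted p under 0.05, 2 by DESeq2 and 1 by limma with voom), with a median log2 fold change of -0.27 against 0.02 over all genes. For this list and those below, the shares over all genes tested in DKO livers were 19.2% higher and 16.6% lower. All the lists were chosen with earlier results of these data known. Gata6, the GATA paralog, was at 28.8 ± 5.73 against 15.8 ± 2.11 CPM (1.82-fold, edgeR adjusted p = 0.00208), and Zfpm2, a cofactor of GATA proteins, at 5.94 ± 0.724 against 2.90 ± 0.924 CPM (2.05-fold, adjusted p = 0.00764). Cebpd, the C/EBP paralog of the acute phase, was 1.66-fold higher (adjusted p = 0.0235). That call ended with all 16 libraries in one fit (adjusted p = 0.114) and without DKO-7070, DKO-7112, WT-7067, WT-7114 or WT-7139 (0.0533 to 0.0700).

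Of 30 other hepatocyte transcription factor genes, 11 were lower, 2 higher and 17 did not pass in DKO livers, with a median of -0.42. Tbx3, a T-box factor of pericentral hepatocytes, stood at 5.18 ± 0.577 against 38.8 ± 8.77 CPM, 7.49-fold lower (edgeR adjusted p = 3.55e-06). Mlxipl, which encodes the glucose-responsive factor ChREBP, was 2.91-fold lower and the nuclear factor I gene Nfix 2.42-fold lower. The 2 that were higher were Atf5 (2.30-fold) and Foxp1 (1.50-fold), and the count of higher genes was 1 without DKO-7070 or without WT-7067. Of 15 biliary and progenitor factor genes listed, 11 passed the expression filter. Of these, 6 were higher and 0 lower (0 lower at an unadjusted p under 0.05, and 0 by DESeq2 and by limma with voom), with a median of 1.18. Among the higher genes, Elf3, Bcl11a and Hey1 had control means of 0.386, 0.582 and 0.710 CPM. Genes so low in controls passed the filter through the DKO libraries, where they were higher, so the filter favoured a higher call. Klf6, an injury-induced zinc finger gene, was 4.67-fold higher, the Notch effector gene Hes1 2.48-fold, and the epithelial factor gene Elf3 had a log2 fold change of 4.14, or 3.29 without DKO-7112. Sox9, the usual marker of biliary fate, was at 5.93 ± 4.14 against 6.05 ± 2.36 CPM and did not pass (adjusted p = 0.998).

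Genes with described control by the 9 factors are listed with some genes in common, so their counts are not independent. These lists too were chosen with earlier results known, and 16.6% of all genes tested were lower in DKO livers and 19.2% higher. Of 13 genes with described C/EBP alpha control, 8 were lower and 0 higher in DKO livers (0 higher at an unadjusted p under 0.05, and 0 by DESeq2 and by limma with voom), with a median of -0.80. The liver glycogen synthase gene Gys2 stood at 59.8 ± 10.6 against 263 ± 78.3 CPM (4.40-fold lower, edgeR adjusted p = 0.000103), Alb was 1.88-fold and the urea cycle gene Otc 1.48-fold lower. Of 11 genes with described FOXA binding, 6 were lower and 1 higher, with a median of -0.91. They included Serpina1a (2.37-fold lower) and the transthyretin gene Ttr (1.69-fold lower). The 1 higher gene, Igfbp1, had an adjusted p of 0.0484, and the count of higher genes fell to 0 with no filter, with the tag series as a term, and without DKO-7112, DKO-7137 or any 1 of the controls. Of 8 genes with described ONECUT or PROX1 control, 5 were lower and 0 higher (0 higher at an unadjusted p under 0.05, and 0 by DESeq2 and by limma with voom), with a median of -1.18. Those 5 were the bile acid genes Cyp7a1 (9.87-fold lower) and Cyp8b1 (15.8-fold lower) with Ttr, Tat and Pck1. Prox1, whose product is described as a corepressor of bile acid synthesis, was lower in the same livers as these bile acid genes. Any link between them was not tested.

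Of 16 acute phase genes with described C/EBP beta control, 9 were higher and 1 lower, with a median of 1.25. Hemopexin (Hpx) was at 10875 ± 3153 against 2146 ± 317 CPM (5.07-fold higher, edgeR adjusted p = 6.63e-05) and Serpina3n was 7.47-fold higher. Il6ra, the receptor subunit through which interleukin 6 induces these genes, was at 59.1 ± 14.4 against 191 ± 37.2 CPM (3.24-fold lower, adjusted p = 0.000111). Without DKO-7112 the list's median was 0.66, and 2 genes were lower. Within each library the summed level of these 16 genes ran from 31060 to 59420 CPM in DKO and from 14430 to 21800 CPM in control livers.

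**Figure D5:**
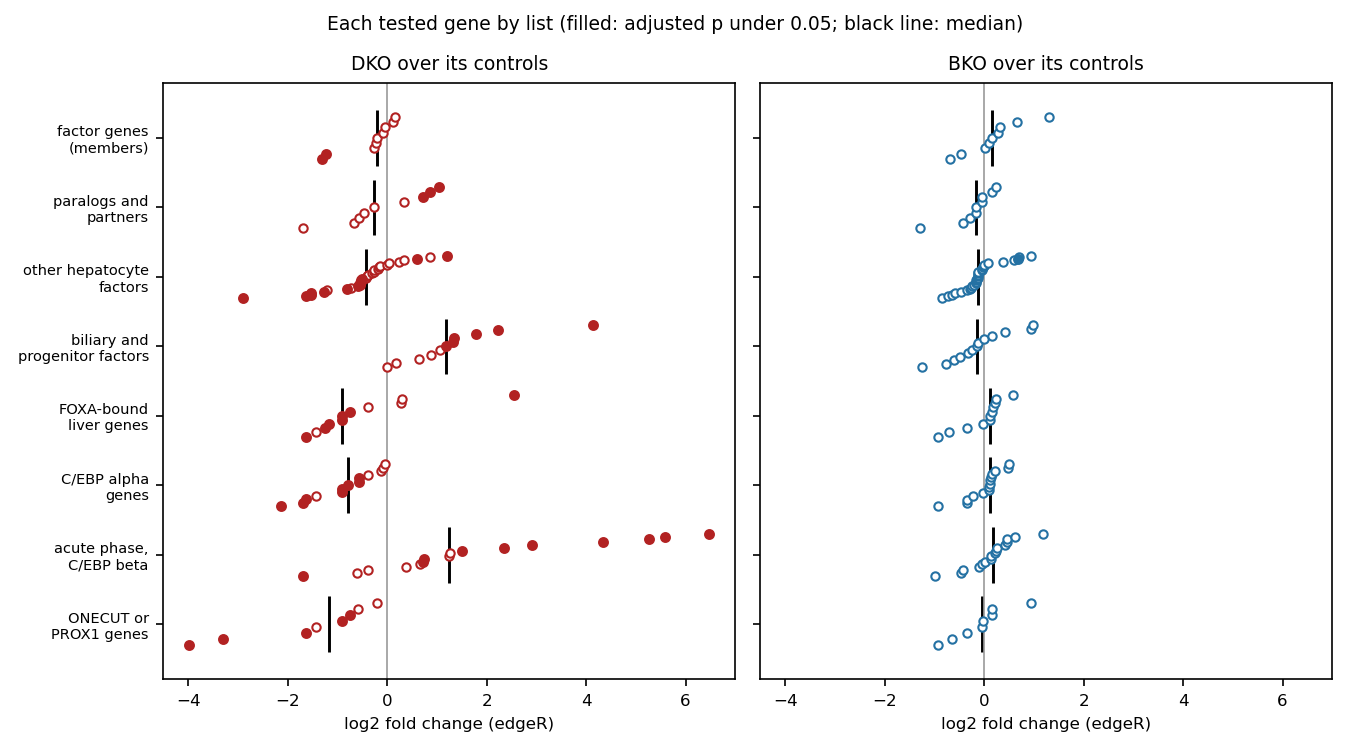
Fitted log2 fold changes of every tested gene of the 9 factors and of 7 gene lists, in DKO (left) and BKO (right), with filled points at an adjusted p under 0.05 and a black line at each median. In DKO the medians of the C/EBP alpha, FOXA and ONECUT or PROX1 lists lie at -0.80, -0.91 and -1.18 and that of the acute phase list at 1.25, while in BKO the medians lie between -0.16 and 0.18.

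In BKO livers the 7 lists held 1 gene called by edgeR, Atf5, at 196 ± 25.3 against 122 ± 17.1 CPM (log2 fold change 0.68, edgeR adjusted p = 0.0328). The call ended with scaling by total counts only, with limma and voom, with all 16 libraries in one fit, and in 7 of the 8 fits that left out a library (all but that without ARID1B-F5-WT-2), with adjusted p of up to 0.325. Hhex, a homeobox gene of early liver, was at 32.5 ± 6.04 against 58.8 ± 13.2 CPM, with no overlap, and missed the threshold (-0.85, edgeR adjusted p = 0.0644). It passed with DESeq2 (adjusted p = 0.000735), under total-count scaling (0.0465), with all 16 libraries in one fit (0.0287) and without ARID1B-F7-WT (0.0377), and reached up to 0.198 with another library left out. Hhex was also called lower in DKO livers, by a similar amount and with no overlap (-0.81, edgeR adjusted p = 0.00131). DESeq2 called more genes of these lists in BKO livers: 3 higher and 2 lower of the other hepatocyte factors, 1 lower of the paralogs and partners, 1 higher and 1 lower of the acute phase genes and 1 higher of the ONECUT or PROX1 genes, where a gene may stand in more than 1 list. Limma with voom called 0. With edgeR, 2 of the other hepatocyte factors were higher and 1 lower without ARID1B-F4-KO. List medians ran from -0.16 for the paralogs and partners to 0.18 for the acute phase genes.

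Markers of other liver cells moved with these results in DKO livers, and their part in them was not tested. The 11 hepatocyte markers found, all detected in every group, summed to 99120 to 130200 CPM in DKO against 140100 to 166800 CPM in control livers, with 4 lower (Ttr, Hpd, Alb and Apoa1) and 1 higher (Fgb). Alb was the largest part of that sum, at a mean of 53336 against 100120 CPM. The other 6 markers did not pass, among them Apob, the next largest, at 19790 against 16140 CPM. Albumin took 3.76% to 6.38% of DKO counts and 8.62% to 9.94% of control counts. Sinusoidal endothelial markers, of which 6 of 12 were lower and 1 with total-count scaling, summed to 711 to 791 against 821 to 1024 CPM. Stellate cell markers summed to 1619 to 2466 against 478 to 637 CPM (4 of 12 higher, 3 lower) and macrophage markers to 481 to 560 against 291 to 481 CPM (8 of 12 higher). The largest parts of the stellate sum in DKO were Col3a1 (mean 835 against 89.8 CPM) and Col1a1 (559 against 28.2 CPM). Of the 3 lower stellate markers, Lrat was at 10.1 against 34.4 CPM. Bile duct markers summed to 171 to 971 against 101 to 119 CPM, with 4 of 7 tested higher (7 of 10 without DKO-7137), and neutrophil markers to 11.2 to 61.4 against 3.41 to 7.25 CPM (3 of 3 tested higher). These 7 and 3 passed the filter, of 12 bile duct and 7 neutrophil markers found. Tspan8, S100a8 and S100a9 had control means of 0.446, 0.334 and 0.243 CPM. The macrophage markers Mmp12, Trem2, Gpnmb and Cx3cr1 had 0.22, 0.21, 0.083 and 0.69 CPM. Genes so low in controls passed through the DKO libraries, where they were higher, so the filter favoured a higher call. Spp1 was on average the largest part of the bile duct sum in DKO livers, at a mean of 377 against 24.8 CPM. In BKO livers 0 genes of these lists were called by edgeR or by limma with voom, 2 hepatocyte markers were higher and 4 bile duct markers lower at an unadjusted p under 0.05, 2 bile duct markers were called lower by DESeq2, and the summed hepatocyte markers ran from 120200 to 143200 against 110700 to 121200 CPM.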

How the data were processed

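Per the labels' protocols, liver RNA was isolated with TRIzol and RNeasy, and libraries were made with reagents of the NuGEN Ovation line. The authors deposited whole-number counts per gene, not normalized, in 1 table per experiment of 24421 rows. Per the submitters' processing notes the tools were featureCounts (1.6.2), HISAT2 (2.1.0) and Trim Galore (0.4.1), and the builds GRCm38, mm10 and GRCh38 are listed there with no role. The authors counted with a strand setting, annotation and handling of shared reads not given in the sources used here. In GENCODE M21 (GRCm38) 4 of the 9 genes overlap another gene, 3 of them one on the opposite strand, and of 57 listed genes given by name 26 overlap another gene. The 2 tables shared 24394 names, and 27 BKO rows whose names had turned into dates entered no joint fit. All 16 columns were matched to a sample and 0 were left over.

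Samples were grouped by genotype and named by animal tag. The labels do not say that each library is a separate animal. The tags differ except for 2 BKO controls that have F5 in common, which were kept as 2 libraries and, as an alternative, summed. If libraries shared an animal, p-values would measure technical spread in part. Counts were fitted in R 4.3.3 with edgeR 4.0.16 (filterByExpr, TMM scaling, robust quasi-likelihood test), each experiment alone and, for the difference of changes, all 16 libraries in one model. P-values were Benjamini-Hochberg adjusted over all genes tested, and a call is an adjusted p under 0.05. Folds are ratios of mean CPM. Fits were tested on simulated data. Alternatives used DESeq2 1.42.0 and limma 3.58.1. Ratios were tested by exact permutation of libraries. The members and lists were chosen with earlier results of these data known. All 9 members were named. Of each list, the 3 genes with the smallest p in DKO and the 2 in BKO could be named, and of those genes only some are given. Genes outside this rule (Atf5, Foxp1 and Hhex in DKO, Bcl11a, Hey1, Igfbp1, Tat, Pck1, Sox9 in DKO, Apoa1, Fgb, Apob in DKO, Lrat, Spp1, Trem2, Gpnmb, Tmem189, Klhdc7a, Ube2z and Bcl9l) were named after their values were seen. Of the listed genes 2, Tf and Ly6g, were not matched by name.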

Additional observations from a re-analysis of the deposited data

Results flagged for a closer look

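Each of the 9 genes in each of the 4 groups of 4 libraries was checked for a library far from the other 3, 36 checks in all, of which chance marks about 1 in 20. For Cebpa, the BKO control ARID1B-F7-WT stood apart at 245 CPM, below the other 3 controls. For Onecut1, ARID1B-F4-KO stood apart at 15.9 CPM, below the other 3 BKO livers. The Cebpa change also differed between the knockout experiments by the test of the difference itself, at -1.38 on the log2 scale (edgeR adjusted p = 0.0167, DKO change minus BKO change).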

How the results depend on the processing

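The counts of members called in DKO livers, 0 higher and 2 lower, were the same in all 17 alternatives. In BKO livers 1 member was lower by DESeq2, and the count lower ran from 0 to 1 with a library left out. For the difference of changes, scaling by total counts only gave 1 higher and 0 lower, and leaving out a library gave 1 to 2 lower. Of 495 alternative fits of single members 19 changed sign, and 0 of those passed the threshold. With total counts only these were Foxa3 (0.13) and Onecut1 (0.12) in DKO, Onecut2 (-0.041) in BKO, and Foxa1 (0.15) and Gata4 (0.050) for the difference, beside Flt4 in DKO (0.16) and Arid1a in BKO (-0.0095). Onecut1 in DKO was 0.38 with limma and voom and 0.24 with the tag series as a term, and Foxa1 in DKO was -0.040 with DKO-7068 and DKO-7070 summed. With 1 library left out, DKO changes ran from -0.11 to 0.31 (Foxa1), -0.21 to 0.10 (Foxa3), -0.42 to 0.90 (Onecut1) and -0.11 to 0.048 (Flt4). BKO changes ran from -0.045 to 0.29 (Cebpb), -0.040 to 0.29 (Cebpa), -0.073 to 0.075 (Onecut2), -0.15 to 0.013 (Flt4), -0.0074 to 0.67 (Vsig4), -0.49 to 0.060 (Mmrn1) and -0.36 to 0.11 (Mmp9), and the difference for Foxa1 from -0.40 to 0.022. The causes were not tested. No paired analysis was possible because the labels give the groups no shared replicate numbers and do not say that neighbouring animal tags are pairs. With 4 libraries a group, the 95% intervals of members not called in DKO or BKO still reach changes of 0.26 to 3.07 on the log2 scale, so an absent call does not show an unchanged gene.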
